A study of Mus musculus with 120 samples.

Results

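Elf5, Cdx2, Esrrb, Tfap2c, Ascl2 and Hand1 are transcription factors known to set up, maintain or differentiate trophoblast stem cells, the cells that build the placenta. The set was defined by gene name and holds 6 of the 23154 genes in each of 2 count tables. It was followed through 28 polyA RNA libraries, 18 of mouse embryos and 10 of embryonic stem cells, out of 120 samples in the series.

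The embryos were of the ICR strain, an outbred stock, and were taken on embryonic day 6.5, day 7.0 or day 7.5 (E6.5, E7.0 and E7.5). At each stage an extra-embryonic part (ExE) was separated from the embryonic part. The embryonic part is labelled Epi at E6.5, A and P at E7.0, and A, AM and P at E7.5, letters that the labels do not spell out. Each of these 9 groups had 2 libraries, made with a Nextera XT kit. The cells were of the E14/TG2A mouse embryonic stem cell line, sampled as stem cells at day 0 (D0) and as neural progenitors after 8 days of differentiation (D8). They were unedited (WT, 2 libraries per day) or carried a CRISPR-Cas9 deletion of an enhancer named Enh9E (KO, 3 libraries per day), and their libraries were made with a NEBNext RNA kit. The labels give no target gene for Enh9E and do not say whether the KO libraries come from 1 clone, so the deletion and other differences of the line cannot be told apart. They also do not say whether replicates are separate embryos or cultures, and the p-values therefore reflect only how far these libraries differ, which may be technical.

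Trophoblast stem cells come from the trophectoderm, the outer layer of the blastocyst, and in the egg cylinder they are found in the extra-embryonic ectoderm next to the epiblast. Signals from the epiblast keep them dividing, while cells farther away form the ectoplacental cone and giant cells. Elf5 is an ETS factor, and its promoter is known for DNA methylation that differs between trophoblast and embryonic lineages. Esrrb is an orphan nuclear receptor of trophoblast stem cells and of naive embryonic stem cells. Tfap2c is an AP-2 factor that also acts in primordial germ cells. Cdx2 is a caudal homeobox factor that specifies trophectoderm and later patterns the posterior body. Ascl2 and Hand1 are basic helix-loop-helix factors: Ascl2 is needed for the ectoplacental cone and its derivatives, and Hand1 promotes giant cells and acts in extra-embryonic mesoderm and heart.

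In GRCm38, the assembly behind mm10, the genes lie at chr2:103412098-103450989 (Elf5), chr2:172545678-172558622 (Tfap2c), chr5:147300900-147307249 (Cdx2), chr7:142966822-142969264 (Ascl2), chr11:57828713-57832147 (Hand1) and chr12:86361117-86521628 (Esrrb). RefSeq promoter sequences of GRCm38.p6, covering 250 bases before to 50 bases after a start, matched 4 of the 6 genes with 6 starts. Tfap2c and Hand1 had no entry. The promoters below are of 2 genes called higher in ExE at all 3 stages, Elf5 and Ascl2, and of Cdx2, which had its highest level in P at E7.5. They are printed 5′ to 3′ on the gene's strand, with CpG dinucleotides, the bases that DNA methylation marks, in capitals.
Elf5, first start, chr2:103411848-103412147, + strand: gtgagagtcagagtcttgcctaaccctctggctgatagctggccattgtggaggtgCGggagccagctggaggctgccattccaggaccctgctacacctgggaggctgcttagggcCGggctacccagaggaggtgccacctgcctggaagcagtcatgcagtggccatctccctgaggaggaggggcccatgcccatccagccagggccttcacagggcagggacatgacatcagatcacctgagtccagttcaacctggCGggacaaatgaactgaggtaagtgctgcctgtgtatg
Elf5, second start, chr2:103423818-103424117, + strand: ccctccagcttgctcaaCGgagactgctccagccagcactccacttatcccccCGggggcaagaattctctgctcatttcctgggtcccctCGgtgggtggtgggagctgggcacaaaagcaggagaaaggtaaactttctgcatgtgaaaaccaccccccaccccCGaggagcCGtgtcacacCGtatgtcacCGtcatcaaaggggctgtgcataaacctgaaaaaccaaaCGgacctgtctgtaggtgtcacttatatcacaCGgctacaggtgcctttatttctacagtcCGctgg
Ascl2, chr7:142969215-142969514, - strand: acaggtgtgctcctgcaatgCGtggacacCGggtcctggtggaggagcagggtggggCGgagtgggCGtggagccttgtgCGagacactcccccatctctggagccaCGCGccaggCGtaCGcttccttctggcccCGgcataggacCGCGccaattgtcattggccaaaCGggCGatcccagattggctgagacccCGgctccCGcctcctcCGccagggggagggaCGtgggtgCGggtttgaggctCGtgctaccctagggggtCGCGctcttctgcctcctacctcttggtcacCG
Cdx2, chr5:147307200-147307499, - strand: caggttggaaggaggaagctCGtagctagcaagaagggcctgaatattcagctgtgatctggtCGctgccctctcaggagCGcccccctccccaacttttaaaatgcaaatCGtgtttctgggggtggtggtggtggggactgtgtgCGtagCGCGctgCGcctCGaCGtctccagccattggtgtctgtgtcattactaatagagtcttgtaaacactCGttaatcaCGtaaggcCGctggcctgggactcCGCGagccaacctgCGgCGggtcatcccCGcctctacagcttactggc

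The first Elf5 promoter held 3 CpG and the second 10, against a median of 7 over 32544 distinct promoters of the same length. Both Esrrb promoters held 7, the Cdx2 promoter 18 and the Ascl2 promoter 23, which is more than in 78.3% of all promoters. The E-box CANNTG, the site type of basic helix-loop-helix factors, matched on either strand in all 6 promoters, with 5 matches at the first Elf5 start, and in 72.3% of all promoters. The half-site AAGGTCA of Esrrb matched in none of the 6 and in 4.71% of all promoters, and TTTATNG, a caudal-type site, in none and in 10.9%. The AP-2 site GCCNNNGGC matched once, in the Cdx2 promoter, and in 16.7% of all, and the ETS site AGGAAG in the Cdx2, second Esrrb and Ascl2 promoters and in 35.1% of all. The T-box site AGGTGT matched in both Elf5 promoters and in the Ascl2 promoter, at bases -156, -4 and -248 from the start counted as 0, and in 13.8% of all promoters. The matches at the first Elf5 start and at Ascl2 overlap an E-box. A match is a description of these letters and no evidence of binding, and no match says only that the letters are not in this window.

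Library totals ran from 5145033 to 17138732 counts in embryos and from 5962176 to 13182032 counts in cells. Levels are CPM, counts scaled to the library total with TMM factors, differences are log2 fold changes ± standard error, and tests are edgeR's quasi-likelihood test with Benjamini-Hochberg adjusted p under 0.05. A gene rose or fell here only if it passed that test. Counts at an unadjusted p under 0.05 come without the share of all genes under it, and are no result about the 6 genes. The 6 genes were all tested in embryos, and 5 in cells, where Elf5 had 0 to 2 counts per library. In embryos as in any bulk sample, fewer cells of a type and less RNA per cell cannot be told apart. The dissection was checked on 8 epiblast markers, whose summed level was 3814 and 4407 CPM in Epi and 597.1 and 737.1 CPM in ExE at E6.5. At E7.0 it was 1706 to 3455 CPM in A and P and 459 and 561.7 in ExE. At E7.5 it was 1649 and 2826 CPM in A and 728.4 and 1577 in P. In AM it was 312.7 and 553.5 and in ExE 369.5 and 431, so there it did not separate ExE from AM. Markers of visceral endoderm (10 genes) summed to 3124 and 5238 CPM in Epi and 4597 and 6909 in ExE at E6.5, which overlap. Their sums at E7.0 were 1385 to 3349 CPM in A and P and 4755 and 6212 in ExE.

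Elf5, Esrrb, Tfap2c and Ascl2 rose in ExE over the embryonic part at all 3 stages. Cdx2 and Hand1 passed at E7.0 and missed the threshold at E6.5, with differences of 3.30 and 4.38 there against 4.07 and 3.97 at E7.0. At E7.5 they did not pass, and their levels in ExE overlapped those of the embryonic part. The change of this ExE difference between E6.5 and E7.5 did not pass for either, and that between E7.0 and E7.5 was not tested. At E6.5, 4 of the 6 rose in ExE over Epi, where 3.69% of the 14403 genes tested were called higher. At E7.0, 6 of the 6 rose in ExE over the mean of A and P, against 10% of all genes. At E7.5, 4 of the 6 rose over the mean of A, AM and P, against 13.4%. The median log2 difference of the 6 was 4.93, 6.03 and 4.07 at the 3 stages, beside 0.03, -0.04 and -0.02 over all genes.

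**Figure D1:**
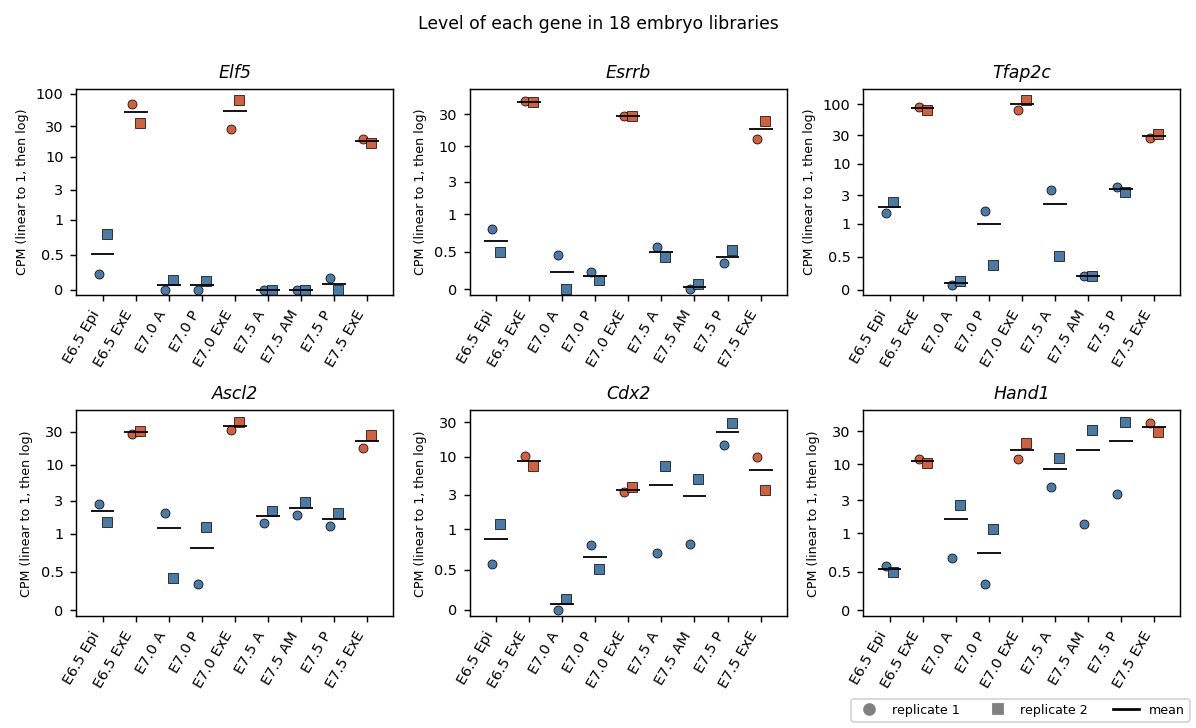
Level of each gene in CPM (axis linear up to 1, logarithmic above) in the 18 embryo libraries, with circles for replicate 1, squares for replicate 2, bars for the mean of 2, orange for ExE and blue for embryonic groups. Elf5, Esrrb, Tfap2c and Ascl2 stood higher in each of the 6 ExE libraries than in each of the 12 embryonic ones, whereas Cdx2 was highest in P at E7.5 and Hand1 spread widely over the E7.5 groups.

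Elf5 was nearly absent from the embryonic part. In ExE it stood at 68.2 and 33.7 CPM at E6.5, at 26.9 and 78.3 at E7.0, and at 19.3 and 16.5 at E7.5. Epi held 2 and 8 counts, or 0.228 and 0.793 CPM. The 4 embryonic libraries of E7.0 held 2 counts in all and the 6 of E7.5 another 2, both of these in P replicate 1, so that A and AM at E7.5 had none. Every ExE library thus stood far above every embryonic one, while the ExE replicates of E6.5 and E7.0 overlapped each other. The log2 difference at E6.5 was 6.58 ± 0.83 (edgeR, adjusted p = 0.000163). At E7.0 and E7.5 the embryonic side was near its floor, and ExE was 884-fold higher (95% counting interval 244 to 7306) and 720-fold higher (198 to 5962), with edgeR adjusted p = 2.35e-06 and 9.03e-07. Counting intervals cover counting error only.

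Esrrb kept to ExE at every stage. It stood at 46.8 and 44.8 CPM in ExE at E6.5, at 28.0 and 27.7 at E7.0, and at 12.9 and 23.8 at E7.5. The 12 embryonic libraries ranged from 0 to 0.799 CPM, with the highest in Epi and 1 count in all in the AM libraries. The 3 ExE groups were ordered E6.5 over E7.0 over E7.5 with no overlap, yet neither step between stages passed the test. Esrrb rose in ExE by 6.13 ± 0.66, 6.84 ± 0.53 and 6.41 ± 0.46 at the 3 stages (edgeR, adjusted p = 2.35e-05, 7.5e-07 and 1.96e-07).

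Tfap2c stood in ExE at 90.0 and 80.6 CPM at E6.5, at 78.6 and 118 at E7.0, and at 27.1 and 31.9 at E7.5. Unlike Elf5 it kept a low level in several embryonic libraries: 1.48 and 2.28 CPM in Epi, 1.61 and 0.381 in P at E7.0, 4.06 and 3.41 in P at E7.5, and 3.70 and 0.513 in A at E7.5. It was lowest in A at E7.0, with 1 count in each library, and in AM at E7.5, with 3 counts in each. Tfap2c rose in ExE by 5.49 ± 0.67, 8.13 ± 0.60 and 4.60 ± 0.44 (edgeR, adjusted p = 7.53e-05, 4.49e-07 and 4.43e-06). Both ExE libraries of E7.5 lay below all 4 earlier ones, and this step of -1.74 ± 0.55 from E7.0 did not pass (edgeR, adjusted p = 0.279). Without E7.0 ExE replicate 1, which leaves 1 library in that group, the step was -2.08, and that of Elf5 was -2.19.

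Ascl2 had a low level in every embryonic library. It stood in ExE at 28.0 and 31.0 CPM at E6.5, at 31.6 and 41.2 at E7.0, and at 17.5 and 26.7 at E7.5. The embryonic libraries ranged from 0.345 CPM in P replicate 1 at E7.0 to 2.89 in AM replicate 2 at E7.5, and each embryonic group overlapped its neighbour in the order of levels. Ascl2 rose in ExE by 3.8 ± 0.62, 5.22 ± 0.51 and 3.54 ± 0.42 (edgeR, adjusted p = 0.000966, 8.05e-06 and 3.11e-05).

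Cdx2 had its highest level outside ExE. In ExE it stood at 10.2 and 7.47 CPM at E6.5, at 3.22 and 3.78 at E7.0, and at 9.78 and 3.44 at E7.5. In the embryonic part it was low at E6.5, with 0.571 and 1.19 CPM in Epi, and at E7.0, with 1 count in both A libraries together and 0.805 and 0.508 CPM in P. At E7.5 it stood at 14.7 and 29.1 CPM in P, above every other library of the embryo table, at 0.709 and 7.52 in A and at 0.823 and 4.89 in AM. The ExE libraries lay above the embryonic ones at E6.5 and E7.0 and within their range at E7.5. The ExE difference was 3.30 ± 1.02 at E6.5, just short of the threshold (edgeR, adjusted p = 0.0518), 4.07 ± 0.99 at E7.0 (adjusted p = 0.00966) and 0.07 ± 0.71 at E7.5 (adjusted p = 0.961).

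Hand1 differed widely between replicates at E7.5. In ExE it stood at 12.1 and 10.4 CPM at E6.5, at 11.8 and 20.3 at E7.0, and at 39.8 and 29.5 at E7.5. The embryonic part held 0.571 and 0.495 CPM in Epi at E6.5 and between 0.345 and 2.55 CPM at E7.0. At E7.5 its 2 replicates stood far apart in each embryonic group: 4.66 and 12.5 CPM in A, 1.37 and 30.9 in AM, and 3.71 and 40.3 in P. All but 2 of the 6 E7.5 embryonic libraries exceeded 4 CPM, and P replicate 2 was the highest library of all with TMM scaling. Scaled by total counts alone it stood at 26.5 CPM, below ExE replicate 1 (38.8) and AM replicate 2 (33.0) of E7.5. The ExE difference was 4.38 ± 1.47 at E6.5 (edgeR, adjusted p = 0.087), 3.97 ± 1.06 at E7.0 (adjusted p = 0.0234) and 1.26 ± 0.87 at E7.5 (adjusted p = 0.335).

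The calls of these last 2 genes moved with the fit and with single libraries. At E6.5 both passed with DESeq2 (adjusted p = 0.00671 for Cdx2 and 0.0098 for Hand1), with total counts (0.0337 and 0.0255), with no filter and with only the groups compared. At E7.0 the call of Cdx2 was lost without A replicate 1 (adjusted p = 0.0545) or ExE replicate 2 (0.0631). That of Hand1 was lost without A replicate 1 (0.0909), ExE replicate 2 (0.161), P replicate 1 (0.0992) or P replicate 2 (0.0565). At E7.5 Hand1 passed with no filter, at 1.21 (edgeR, adjusted p = 0.0114), and without AM replicate 2 its difference was 2.38.

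**Figure D2:**
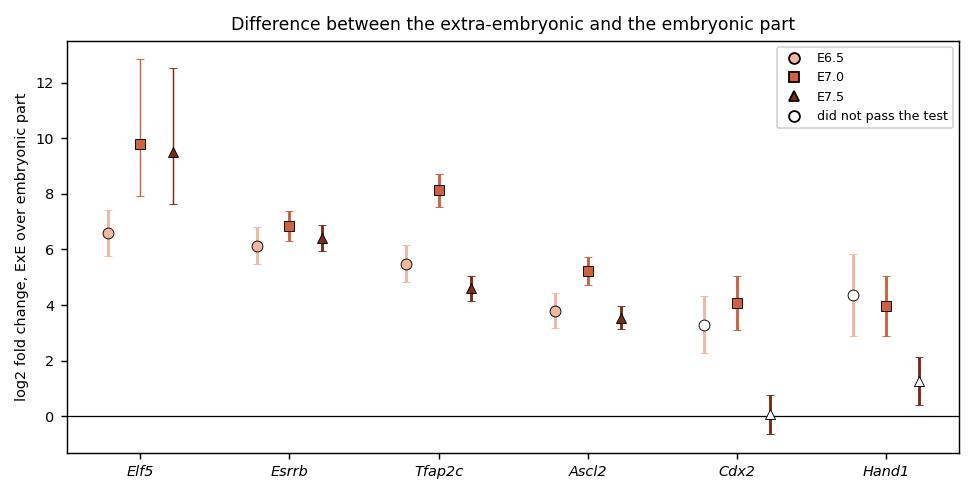
Log2 fold change of ExE over the embryonic part for each gene at E6.5 (circles), E7.0 (squares) and E7.5 (triangles), with standard errors as bars, except Elf5 at E7.0 and E7.5, drawn as the log2 of the count ratio with its 95% counting interval. Open symbols did not pass the test: Cdx2 and Hand1 at E6.5 and E7.5, where Cdx2 sits at 0.07 and Hand1 at 1.26.

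The change of the ExE difference between E6.5 and E7.5 was tested directly, and 0 of the 6 genes passed, where 0.187% of all genes did in either direction. It was -3.23 ± 1.25 for Cdx2 (edgeR, adjusted p = 0.397), -3.11 ± 1.74 for Hand1 (adjusted p = 0.61) and between -0.89 and 0.28 for Esrrb, Tfap2c and Ascl2, while that of Elf5 rests on 2 embryonic counts at E7.5 (adjusted p = 0.412). At an unadjusted p under 0.05 there were 2, Elf5 and Cdx2, and DESeq2 called 0. So no difference between E6.5 and E7.5 is shown for Cdx2 and Hand1. Both were called at E7.0 alone, and the change of the ExE difference from E7.0 to E7.5 was not tested. The embryonic part at E7.5 was also compared with Epi at E6.5. There Elf5 fell, from 10 counts in 2 libraries to 2 counts in 6, a ratio of 0.0473 (95% counting interval 0.00504 to 0.222; edgeR, adjusted p = 0.0436), where 1.56% of all genes were called lower. This call was lost in 7 of the 8 fits that left out 1 of the libraries, with adjusted p up to 0.661 without Epi replicate 2, which held 8 of the 10 counts. Hand1 stood higher by 4.73 ± 1.39 (adjusted p = 0.105) and Cdx2 by 2.82 ± 0.92 (adjusted p = 0.127), which did not pass with edgeR and did with DESeq2 (adjusted p = 0.00105 and 0.011). Hand1 also passed without AM replicate 1 (adjusted p = 0.026).

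Within ExE, 0 of the 6 genes passed between E6.5 and E7.0, where 0.111% of all genes did, and 0 between E7.0 and E7.5, where 0.0208% did. At an unadjusted p under 0.05 there were 0 and 2, the second pair being Elf5 (-1.55 ± 0.61) and Tfap2c. DESeq2 called 0 in both. Hand1 was the 1 gene whose ExE libraries of E7.5 both lay above the earlier ones, at 1.12 ± 1.15 over E7.0 (edgeR, adjusted p = 0.775).

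Among the regions of the embryonic part, Tfap2c in AM was the 1 difference that passed. It fell in AM against A at E7.5 by 3.35 ± 0.78 on the log2 scale (edgeR, adjusted p = 0.0373), where 0.417% of all genes were called lower. The call rests on A replicate 1, with 73 counts against 6 in replicate 2: without it the difference was -1.31 (adjusted p = 0.967). It was also lost without AM replicate 1 (adjusted p = 0.213) or AM replicate 2 (0.253). Against P, 0 of the 6 passed in AM, where 0.111% of all genes did, although 3 had an unadjusted p under 0.05: Tfap2c at -4.12 ± 0.78 (adjusted p = 0.0521), Cdx2 at -2.93 ± 0.94 (0.425) and Esrrb with 1 count against 8. DESeq2 called Tfap2c there (adjusted p = 0.000351). The 6 markers of primordial germ cells, where Tfap2c also acts, summed to 30.9 and 22.5 CPM in A, 47.5 and 30.7 in AM and 17.4 and 14.8 in P. Kit, Dnd1 and Prdm1 made up most of these sums. Prdm14, Dppa3 and Nanos3 held 6, 16 and 2 counts in A, 8, 14 and 0 in AM and 5, 15 and 2 in P. The part of germ cells in the level of Tfap2c was not tested.

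Between P and A, 0 of the 6 passed at E7.0, where 0.00694% of all genes did, and 0 at E7.5, where 0.236% did. Unadjusted p was under 0.05 for 2 genes at E7.0 and for 1 at E7.5, and DESeq2 called 0 at both. At E7.0, Cdx2 had 18 counts in P against 1 in A, a ratio of 14.4 (95% counting interval 2.27 to 599), and Tfap2c 31 against 2, a ratio of 12.4 (3.15 to 107), 28 of the 31 in P replicate 1. At E7.5 Cdx2 stood higher in P than in A by 2.43 ± 0.92 without overlap of the libraries (edgeR, adjusted p = 0.456). Markers of the primitive streak and posterior mesoderm, 8 genes such as T and Mixl1, summed to 504 and 650.7 CPM in P, the group with the most Cdx2, and to 17.5 to 161.3 CPM in the other E7.5 libraries.

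Other cell types differed between the E7.5 libraries too. Markers of visceral endoderm, the layer around the egg cylinder (10 genes such as Ttr and Afp), summed to 21.3 and 556 CPM in A, 1322 and 6761 in AM, 488 and 6197 in P, and 13167 and 15867 in ExE. Markers of extra-embryonic mesoderm and allantois, 10 genes such as Foxf1 and Kdr, summed to 31.7 and 36.7 CPM in A and 39.0 and 117 in AM. They summed to 29.6 and 72.8 in P, and 196 and 191 in ExE. Some of the 10 were near absent from the embryonic part: Tbx4 held 0, 0 and 2 counts in A, AM and P, Hoxa10 1, 0 and 2, and Hoxa13 1, 2 and 0. The second replicate of A, AM and P had more of both lists than the first, as it had more Hand1 and more Cdx2. Bmp4, which the second list holds, is also a product of extra-embryonic ectoderm. Between 7 and 10 of the 10 extra-embryonic mesoderm markers were detected in each E7.5 library, and the part of either tissue in the levels of Hand1 and Cdx2 was not tested. Blood and endothelium markers (10 genes) summed to 161 and 128 CPM in ExE and to 4.49 to 54.9 CPM in the E7.5 embryonic libraries.

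**Figure D3:**
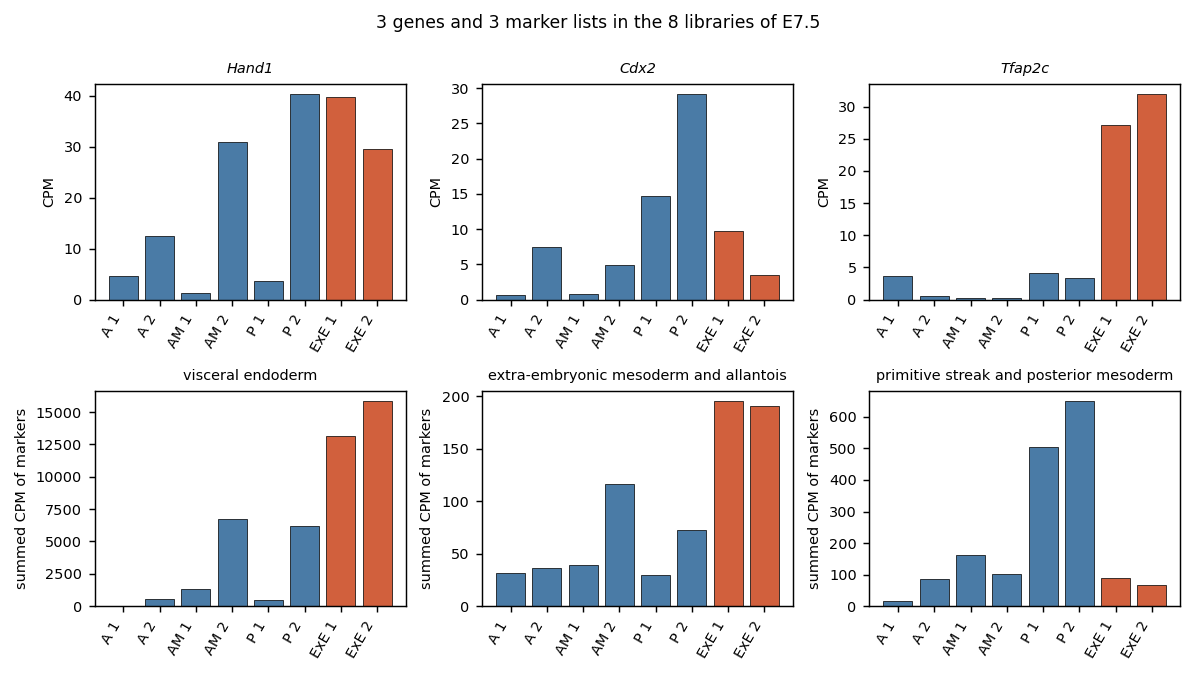
Level of Hand1, Cdx2 and Tfap2c (upper row, CPM) and summed level of 3 marker lists (lower row, summed CPM) in the 8 libraries of E7.5, 1 bar per library, with blue for A, AM and P and orange for ExE. Hand1 stands at 30.9 and 40.3 CPM in the second libraries of AM and P and at 1.37 and 3.71 in the first, and the visceral endoderm sum shows the same split (6761 and 6197 against 1322 and 488).

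Other genes of the trophoblast programme were counted beside the 6, in 3 lists chosen with earlier results of these data known. Their counts describe the lists and are no independent support for such a programme in ExE. Of 17 further transcription factors known from trophoblast, all tested, 13 rose and 0 fell in ExE at E6.5, 14 and 0 at E7.0, and 12 and 0 at E7.5, with medians of 3.50, 3.0 and 2.34. Of all genes 3.69%, 10% and 13.4% were called higher. The 13 at E6.5 came down to 4 without Epi replicate 1, to 8 without either ExE library and to 9 without Epi replicate 2. Nr0b1, a nuclear receptor without a DNA-binding domain of the classical kind, rose by 4.55 ± 0.58, 5.41 ± 0.46 and 6.99 ± 0.47. Id2, an inhibitor of helix-loop-helix factors, rose by 3.66 ± 0.52, 3.56 ± 0.40 and 3.05 ± 0.35, and Zfp42, a zinc finger factor, by 3.61 ± 0.56, 4.22 ± 0.43 and 4.67 ± 0.39. Klf5, a Krüppel-like factor, rose by 4.21 ± 0.67, 3.0 ± 0.51 and 2.39 ± 0.44, and Ets2, an ETS factor, by 1.86 ± 0.34, 2.18 ± 0.27 and 0.93 ± 0.26. Sox21, a SoxB2 factor, rose by 4.43 ± 0.72 at E7.5. Eomes, the T-box partner of Elf5 that also acts in the primitive streak, did not pass at E6.5 (0.12 ± 0.57) or E7.0 (-0.74 ± 0.51) and rose at E7.5 (1.91 ± 0.44). Sox2 stood at 0.88 ± 0.60, 0.25 ± 0.52 and 0.89 ± 0.49 and did not pass at any stage, and Gata3 did not at E7.5 (0.18 ± 0.76).

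Of 16 signals and products of extra-embryonic ectoderm, 12 rose and 1 fell at E6.5, 12 rose and 2 fell at E7.0, and 10 rose and 0 fell at E7.5. The medians were 3.32, 3.46 and 2.11. Of all genes 3.69%, 10% and 13.4% were called higher at the 3 stages, and 5.24% were called lower at E6.5 and 8.14% at E7.0. The 13 calls of E6.5 came down to 4 without Epi replicate 1, to 6 without ExE replicate 1 and to 7 without Epi or ExE replicate 2. Fgfr2, the receptor through which FGF signals maintain these cells, rose at E6.5 (3.46 ± 0.59) and stood at 0.54 ± 0.42 at E7.5, where it did not pass. Wnt7b, a Wnt ligand, rose by 7.73 ± 0.78 at E6.5 and 7.59 ± 0.54 at E7.5, and Rhox6, a homeobox gene of the X-linked Rhox cluster, by 3.92 ± 0.69, 4.92 ± 0.55 and 5.37 ± 0.49. Rhox9 rose by 7.26 ± 0.67 at E7.0 and 6.93 ± 0.58 at E7.5. Rhox genes are closely related neighbours, so their counts may be shared. Ddah1 rose by 4.20 ± 0.38, 3.51 ± 0.28 and 2.93 ± 0.24. Furin, a convertase that processes Nodal, did not pass at any stage (1.63 ± 0.76, 1.37 ± 0.64 and 0.27 ± 0.60), and Cdh3, a cadherin, stood at 0.83 ± 0.65 at E7.0. The genes that fell were feedback inhibitors of FGF and ERK signals: Dusp6 at E6.5 (-1.15 ± 0.29) and E7.0 (-1.01 ± 0.26), and Spry4 at E7.0 (-1.78 ± 0.47), after -0.81 ± 0.50 at E6.5, which did not pass.

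Of 13 markers of differentiating trophoblast 7 were tested, of which 2 rose at E6.5, 2 at E7.0 and 4 at E7.5, and 0 fell, with medians of 0.41, 0.91 and 1.57. The shares of all genes called higher were again 3.69%, 10% and 13.4%. The 2 calls of E6.5 came down to 0 without Epi replicate 1 and to 1 without Epi replicate 2 or ExE replicate 1. The 4 calls of E7.5 came down to 0 without ExE replicate 2 and to 2 without A replicate 1, P replicate 1 or ExE replicate 1. Phlda2, an imprinted growth regulator of the placenta, rose by 4.49 ± 0.82, 3.52 ± 0.60 and 1.76 ± 0.53, and Cdkn1c, an imprinted cell-cycle inhibitor, by 2.28 ± 0.56, 3.35 ± 0.45 and 1.62 ± 0.40. At E7.5 Krt18, a keratin of simple epithelia, and Flt1, a VEGF receptor, rose by 1.57 ± 0.35 and 1.62 ± 0.50. Prl3d1, a placental lactogen of giant cells, did not pass at any stage, with 33 counts in ExE against 3 in the embryonic part at E6.5 and differences of -3.02 ± 1.39 at E7.0 and 0.93 ± 1.01 at E7.5. Tpbpa, Prl2c2, Gcm1, Syna, Synb and Ctsq, markers of later placental cell types, did not pass the filter on low counts.

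The likeness of expression patterns was described over the 18 embryo libraries by Pearson's r of log2 CPM, which sums up group differences, depth and makeup shared by the libraries. Elf5, Esrrb, Tfap2c and Ascl2 were alike, with r from 0.85 (Tfap2c and Ascl2) to 0.941 (Esrrb and Tfap2c). Cdx2 and Hand1 were most like each other among the 6, with r = 0.749, and had r between 0.391 and 0.636 with the other 4. Over 8221 candidate genes, those most like Elf5 were C77370, Wnt7b and Hras (r = 0.963, 0.963 and 0.957), and those most like Esrrb were Wnt7b, Fabp3 and AU018091 (0.964, 0.964 and 0.955). Tfap2c was most like Esrrb, Wnt7b and E130012A19Rik (0.941, 0.928 and 0.927), and Ascl2 like AU018091, Nup62cl and S100a6 (0.955, 0.953 and 0.949). For Cdx2 the nearest were Dennd5a and Slc16a13 (0.832 and 0.832), and for Hand1 they were Phlda2, Cmtm7 and Bmp4 (0.912, 0.902 and 0.877). AU018091 stood at 86.0 ± 32.1, 158 ± 26.7 and 65.0 ± 53.9 CPM in ExE of the 3 stages (SD, n = 2) and under 1 CPM on average in every embryonic group.

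In the cell line only Esrrb and Tfap2c stood above 10 CPM at D0. Esrrb stood at 954 and 933 CPM in WT stem cells and at 901, 880.6 and 912 in KO stem cells, where it is known as part of the naive pluripotency network. At D8 it was down to 10.2 and 11.1 CPM in WT and to 16.7, 1.75 and 0.908 in KO, so that the days did not overlap. It fell by 6.46 ± 0.91 in WT and by 7.13 ± 0.77 in KO (edgeR, adjusted p = 0.000118 and 1.31e-05). Naive pluripotency markers (8 genes) fell in summed level from between 4059 and 4533 CPM at D0 to 44.8 and 77.9 in WT and 136.5 to 181 CPM in KO at D8.

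Tfap2c stood at 32.4 and 44.3 CPM in WT and at 18.4, 19.6 and 21.8 in KO at D0. At D8 it stood at 4.44, 6.68 and 3.94 CPM in KO, while the 2 WT libraries were at 2.81 and 31.7, one near the KO level and one near the D0 level. It fell in KO by 1.99 ± 0.59 (edgeR, adjusted p = 0.0114), a call lost without KO D8 replicate 1 (adjusted p = 0.0845) or 2 (0.0526). In WT the difference was -1.12 ± 0.66 (adjusted p = 0.17), and without WT D8 replicate 2 it was -3.71 (adjusted p = 8.65e-05).

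Ascl2 was low and fell with differentiation. It stood at 5.19 and 2.17 CPM in WT and at 3.12, 5.26 and 4.03 in KO at D0, against 0.887 and 0.858 in WT and 0.423, 0 and 0.606 in KO at D8. The days did not overlap in either line. It fell by 2.07 ± 0.75 in WT (edgeR, adjusted p = 0.0334) and by 3.54 ± 0.67 in KO (adjusted p = 0.000753), and the WT call was lost without WT D0 replicate 1 (adjusted p = 0.294), WT D8 replicate 1 (0.121) or WT D8 replicate 2 (0.135), and with total counts in place of TMM (0.0698).

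Cdx2 stayed between 0.429 and 2.88 CPM in all 10 libraries. Hand1 stood at 1.85 and 0.868 CPM in WT and 1.78, 1.6 and 0.79 in KO at D0, and at D8 it held 0 and 1 counts in WT and 1, 2 and 42 counts in KO. KO D8 replicate 3 alone, at 4.24 CPM, thus stood above all D0 libraries. In WT the ratio of D8 to D0 was 0.0444 (95% counting interval 0.00107 to 0.276; edgeR, adjusted p = 0.0818). In KO the difference was 0.17 ± 0.97 (adjusted p = 0.888), and without KO D8 replicate 3, which leaves 3 counts at D8, it was -3.01 (adjusted p = 0.0111).

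In all, 2 of the 5 genes tested fell in WT, where 29.3% of the 14629 genes were called lower, and 3 of 5 fell in KO, where 31.1% were. With 5 genes and a background of this size, the counts are no result about the set. Of the 17 other trophoblast transcription factors, 3 rose and 8 fell in WT, among them Klf5 by -4.73 ± 0.29 and Tead4, which acts upstream of Cdx2 in the blastocyst, by -3.97 ± 0.35. In KO 3 rose and 12 fell, with Klf5 at -3.16 ± 0.21 and Tead4 at -2.96 ± 0.25. This list shares Zfp42 and Nr0b1 with the naive pluripotency markers and Sox2 with the neural progenitor markers, so its counts are not particular to trophoblast. Of 14 signals and products tested, 2 rose and 9 fell in WT and 4 rose and 7 fell in KO, with Pcsk6, a convertase like Furin, at -4.24 ± 0.31 and -4.25 ± 0.24. Of 6 markers of differentiating trophoblast tested, 2 rose and 1 fell in WT and 5 rose and 1 fell in KO, with Cdkn1c at 5.99 ± 0.38 and 4.80 ± 0.30 and Phlda2 at -4.70 ± 0.74 and -3.10 ± 0.46. Of all genes 27.9% were called higher in WT and 33.4% in KO.

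Between KO and WT, 0 of the 5 genes passed at D0, where 0.273% of all genes did, 0 at D8, where 20.8% did, and 0 for the difference between the days, where 5.76% did. At an unadjusted p under 0.05, for which the share of all genes is not given here, there were 0, 3 and 0. DESeq2 called 0 in each. The 3 at D8 were Tfap2c at -1.81 ± 0.63 (edgeR, adjusted p = 0.0635), Cdx2 at 1.51 ± 0.66 (adjusted p = 0.125) and Hand1, with 45 counts against 1. Single libraries changed these: without KO D8 replicate 1 Cdx2 (1.79, edgeR, adjusted p = 0.0494), Hand1 (0.0227) and Esrrb (-3.0, 9.72e-06) passed. Without WT D8 replicate 1, which leaves 1 WT library at D8, the difference of Tfap2c was -2.76. Esrrb also passed for the difference between the days without KO D8 replicate 1 (-2.93, edgeR, adjusted p = 0.000156). Leaving out 1 library also moved the number of all genes called in both comparisons. The passes gained in this way are therefore no result about the 5 genes. Among the related genes, Klf5 (2.04 ± 0.26), Tead4 (1.37 ± 0.33) and Msx2 (2.58 ± 0.70), the 3 of 17 transcription factors called, rose in KO at D8. So did Rhox5 (3.04 ± 0.45) and Rhox6 (2.88 ± 0.46), 2 of 14 signals and products. Of 6 differentiation markers 4 rose, among them Krt8 (2.94 ± 0.50), Krt18 (2.11 ± 0.43) and Flt1 (2.13 ± 0.31), and Cdkn1c fell (-1.08 ± 0.26). The medians of the 3 lists were 0.10, 0.35 and 2.12, beside 0.02 over all genes, of which 12.5% were called higher and 8.24% lower. Total-count scaling moved the share of calls that were higher in KO at D8 from 60.3% to 37.7%, and its median over all genes by -0.20. Visceral endoderm markers summed to 354 to 773 CPM in KO and to 71.2 and 84.5 in WT at D8, and neural progenitor markers (7 genes) to 877 to 1083 and to 1779 and 1814. Their part in the levels of the 5 genes was not tested.

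**Figure D4:**
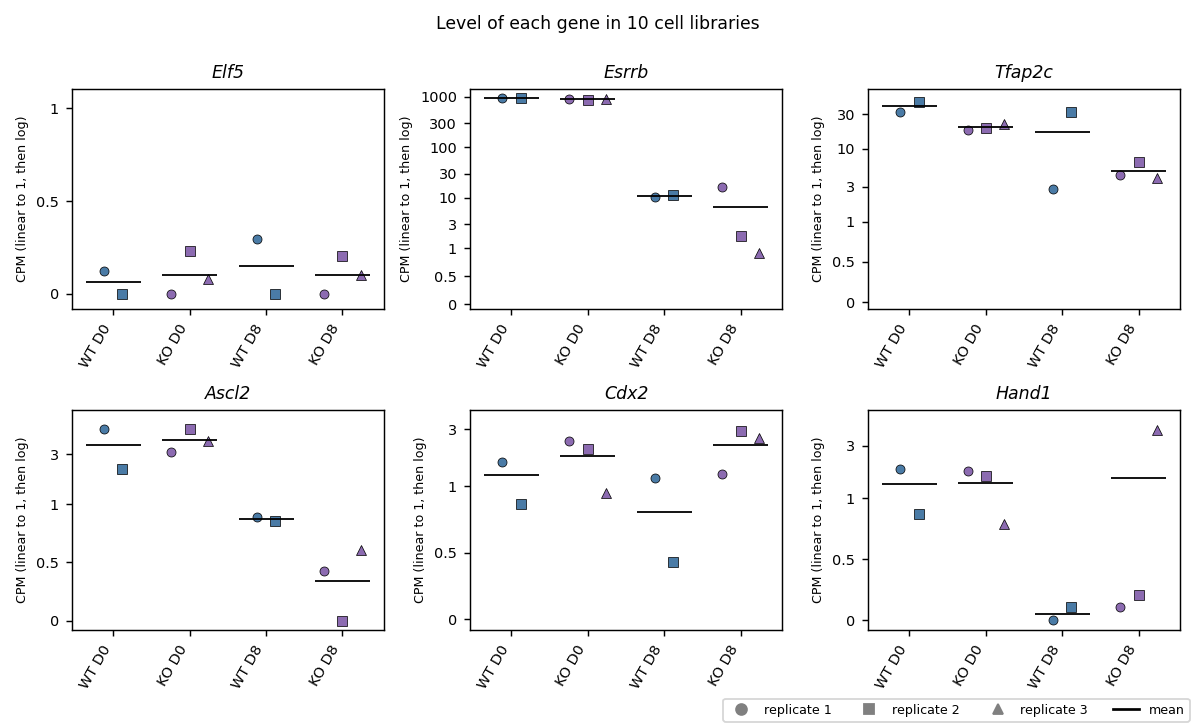
Level of each gene in CPM (axis linear up to 1, logarithmic above) in the 10 cell libraries, by line and day, with circles, squares and triangles for replicates 1, 2 and 3, bars for the mean, blue for WT and purple for KO. Esrrb drops from 880.6 CPM or more to under 17 in both lines, WT D8 is split for Tfap2c (2.81 and 31.7), and 1 KO D8 library stands apart for Hand1 (4.24).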

How the data were processed

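PolyA RNA was measured in 18 embryo and 10 cell libraries. The authors deposited raw counts for each gene, in whole numbers. CASAVA 1.8, TopHat2 2.0.9, BWA and the build mm10 are named in the submitters' processing notes, which leave out how reads were assigned to genes, with which annotation and whether by strand (not given in the sources used here). Overlapping, antisense and near-identical genes may share counts. The 6 embryo columns that matched no sample were not used.

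Genes passing filterByExpr (minimum count 10, minimum total 15) were fitted with edgeR 4.0.16 (R 4.3.3; robust quasi-likelihood, TMM, all groups of a table in 1 fit, no replicate block), which was tested on simulated data. There were 11 contrasts in embryos and 5 in cells, each adjusted over all genes tested. The standard error is the size of the log2 fold change over the square root of F. A side with 1 to 3 counts is given as a ratio with an exact 95% interval. Replicates differed beyond sampling noise (chi-square per degree of freedom 3.78 to 135). TMM factors ran from 0.659 to 1.37 and the ribosomal transcript Rn45s took up to 6.91% of a library.

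All 6 genes were looked at in every contrast, and not all of them are named in each. Of 3 lists of related genes the text names at most 4 called members (smallest p first) and at most 2 without a call (first in the list), and the 3 genes most like each of the 6 among those with a mean log2 CPM of at least 3 (prior count 1), of which 1 for Cdx2 is not reported here. The genes and lists were chosen with earlier results of these data known. Alternatives were DESeq2 1.42.0, its size factors, total counts, no filter or one of 20 counts in at least 2 libraries, a fit to just the groups compared, a block for the replicate number, and fits without each library in turn.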

Additional observations from a re-analysis of the deposited data

How the results depend on the processing

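Elf5, Esrrb, Tfap2c and Ascl2 kept their ExE call at all 3 stages in every alternative run. Over all comparisons, 1059 fold changes of the 6 genes kept direction and side of the threshold, 42 gained a call, 26 lost one and 1 reversed: Hand1 in KO D8 against D0 was -3.01 without KO D8 replicate 3, and up to 0.72 (without KO D8 replicate 1) in the other fits without 1 library. The causes were not tested.

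The number of the 6 genes called moved by more than 1.5 times as follows. With no filter on low counts it was 1 for E7.0 P against A, 1 for E7.5 P against A, 2 for AM against A, 2 for AM against P, 1 for ExE between E7.0 and E7.5, 3 for the embryonic part between E6.5 and E7.5, and 2 for the change of the ExE difference. With total counts in place of TMM it was 0 for AM against A, 1 for WT D8 against D0 and 1 for KO against WT at D8. With DESeq2 it was 1 for AM against P and 3 for the embryonic part, and with its size factors 1 for AM against P. With only the groups compared it was 0 for AM against A and 0 for the embryonic part, where Tfap2c and Elf5 had no test. It was 1 for KO against WT at D0. Over all genes, the fits with full groups gave 0 to 71 calls for E7.0 P against A (main fit 1). They gave 10 to 391 for E7.5 P against A (34) and 3 to 653 for AM against A (226). For AM against P they gave 0 to 189 (16), and for ExE between E7.0 and E7.5 0 to 319 (3). For KO against WT they gave 6 to 2033 at D0 (40) and 705 to 3658 at D8 (3039). So added calls, here and without 1 library below, are no result about the 6 genes. Leaving out 1 library gave 0 to 1 for AM against A, 0 to 2 for ExE between E7.0 and E7.5, 0 to 1 for the embryonic part, 1 to 2 for WT D8 against D0, 0 to 3 for KO against WT at D8 and 0 to 1 for KO by day.

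Pairing by replicate number was not settled. Deviations had a correlation over 0.1 in 36 of 72 same-numbered pairs in embryos and 2 of 13 in cells. With 2 libraries in each embryo group deviations mirror each other, so each embryo value is counted once per replicate number. Many embryo pairs are of different stages, which cannot share an embryo. Within stages, the correlation was 0.334, 0.344 and 0.519 among A, AM and P at E7.5, and 0.289 between A and P at E7.0. Between ExE and the embryonic groups it was 0.0463 at E6.5, 0.135 (A) and 0.129 (P) at E7.0. At E7.5 it was 0.0867 (A), 0.0821 (AM) and 0.203 (P). With the replicate block 6 genes were called for ExE against Epi at E6.5 (Cdx2 and Hand1 added, adjusted p = 0.0301 and 0.02), 1 for AM against P (Tfap2c, 0.0428), 2 for the embryonic part (Hand1 added, 0.0385) and 1 for WT D8 against D0 (Ascl2 lost, 0.0543). These 5 were the calls of the 6 genes that the block changed.

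Total-count scaling moved the median of all genes by 0.33, 0.17 and -0.30 in the ExE comparisons of E6.5, E7.0 and E7.5, and the share of calls that were higher from 41.3%, 55.1% and 62.9% to 63.2%, 69.7% and 44.5%. With 2 libraries a group, calls near the threshold turned on single libraries, and levels of 1 to 3 counts carry the wide intervals given above.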
